A study of Mus musculus with 4 samples.

Results

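Matrix glycoproteins, laminins and proteoglycans are the non-collagen components that cells lay down around themselves or carry on their surface. The 50 genes described here were taken by name, with earlier results of these data known. Of them, 47 had at least 1 probe set of their own among the 18193 genes with a probe set. They were grouped by role into elastic fibre genes, matricellular and adhesive glycoproteins, laminins and nidogens, small leucine-rich proteoglycans, cell-surface proteoglycans, and large proteoglycans with the hyaluronan synthase Has2. Fbn1, Efemp2 and Spp1 were not analysed here. Expression was measured with Affymetrix Mouse Genome 430 2.0 arrays in L929 and NIH3T3 cells, both untreated, with 2 arrays for each line. L929 is a clonal fibroblast line from adult mouse connective tissue, and NIH3T3 is a fibroblast line from mouse embryos. The study took L929 as cells prone to necrotic death and NIH3T3 as cells prone to apoptotic death. Each type of cell is represented by 1 line, so a difference in matrix genes cannot be told apart from any other difference between these 2 lines.

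As background, fibronectin and fibrillin form fibres onto which elastin, fibulins and microfibril-associated proteins are assembled. Laminins are trimers of an alpha, a beta and a gamma chain that polymerise at the cell surface, and nidogens and perlecan join the laminin network to other basement membrane components. Matricellular proteins such as tenascins and thrombospondins tune adhesion rather than giving the matrix its strength. Small leucine-rich proteoglycans such as decorin and lumican bind collagen fibrils, and syndecans and glypicans carry heparan sulfate chains at the plasma membrane. Fibroblasts are a main source of many of these proteins.

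Each value below is a MAS5 signal, in arbitrary units, after the arrays had been brought to the same trimmed mean. The array median as deposited was 23.5 to 24 on 3 arrays and 38.3 on NIH3T3 replicate 2, and 58.7% to 60.8% of probe sets lay above the filter level of 17.3 after scaling. Over the tested probe sets, Pearson's r was 0.982 for the L929 pair, 0.981 for the NIH3T3 pair and 0.835 to 0.843 between lines, a description of the arrays. No label states whether a line's arrays came from different cultures, so p-values measure the spread between these arrays, which may be technical, and the number of arrays limits the precision. All 10 fibroblast and mesenchymal markers lay above the level on all 4 arrays, with a summed signal of 41214 to 43057 in L929 and 32313 to 42605 in NIH3T3. Thy1, a surface marker of fibroblasts, measured 18.0 and 30.0 in L929 and 2193 and 2253 in NIH3T3. Counts of markers above the level on both arrays of a line were 3 of 8 in L929 and 3 of 8 in NIH3T3 for epithelial genes, 1 and 0 of 7 for endothelial genes, 6 and 4 of 8 for leukocyte genes, 2 and 0 of 6 for skeletal muscle genes, 1 and 0 of 4 for adipocyte genes, and 4 and 3 of 5 for cartilage and bone genes. The summed signals were 165 to 172 in L929 and 169 to 195 in NIH3T3 for the epithelial list, 90.4 to 101 and 69.0 to 117 for the endothelial list, 244 to 275 and 443 to 456 for the leukocyte list, and 177 to 249.7 and 88.5 to 90.6 for the muscle list. They were 403 to 419 and 15.4 to 25.8 for the adipocyte list, and 169.8 to 216 and 463 to 576 for the cartilage and bone list. Ptprc, Itgam, Pecam1, Krt19, Adipoq and Col2a1, markers from these lists of other cell types, lay below the level on all 4 arrays. From the same lists, Epcam, Krt5, Krt8, Cd68, Csf1r, Adgre1, Cd14, Acan, Sox9 and Sp7 lay above it on all 4 arrays. Cd14 measured 54.2 and 41.3 in L929 and 238 and 215 in NIH3T3, and Des 118 and 174 against 8.92 and 49.2. Pparg, at 374 to 409.7 in L929 and 2.29 to 2.30 in NIH3T3, made up most of the adipocyte sum in L929. Adipoq, Lep and Cidec, the others of that list, lay below the level on all 4 arrays. Sox9, at 68.1 to 69.1 in L929 and 374 to 458 in NIH3T3, made up most of the cartilage and bone sum in NIH3T3. Pparg and Sox9 thus differed between the lines as single genes of their lists, and their part in the matrix differences was not tested. In RNA from whole cultures, fewer cells of a type and less RNA per cell cannot be told apart.

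The matrix genes differed between the lines in both directions. Tenascin C (Tnc), nidogen 1 (Nid1), decorin (Dcn) and thrombospondin 1 (Thbs1) were bright in NIH3T3, and in L929 no array of theirs exceeded 21.6, against a filter level of 17.3. Tgfbi, matrilin 2 (Matn2), the laminin alpha chain Lama5 and syndecan 3 (Sdc3) were the most raised in L929. Of 40 members bright enough to be tested, limma called 10 as higher in L929 and 16 as lower, at an adjusted p under 0.05 and a fold above 1.5. Over all 12676 genes tested, 35.2% were called, 17.4% as higher and 17.8% as lower, against 25% and 40% of the tested members. The members were chosen with earlier results of these data known, so the shares given here describe the list and are no test of it. At more than 4-fold, 4 members were higher and 11 lower, together 37.5%, against 7.77% of all genes. Of these 11, 8 had entered the test through NIH3T3 alone and 3 (Fbln5, Thbs1 and Thbs2) lay above the level on all 4 arrays, as did all 4 that were higher, so the excess toward NIH3T3 rests on genes that the filter admitted through the bright line. The median log2 difference, L929 minus NIH3T3, was -0.25 over the tested members and 0.01 over all genes, and the median absolute difference was 1.25 against 0.46. Both member medians were the same with the 4 members that lay below the level on both L929 arrays set to their bound. All 4 bounds stayed on the same side of both medians, so this step could not have moved them. These 4 members were Tnc, Npnt, Lama4 and Has2. A member that entered the test through 1 line alone had an array at or below the level in the other. Entry in this way largely fixed the direction that its call could take. Through NIH3T3 only, 10 members entered, of which 8 were called lower and 2 were not called. Through L929 only, 2 members entered, of which Gpc6 was called higher and Fbln1 was not called. With no filter, all 47 members entered, and 10 were again called higher and 16 lower; of all genes 23.3% were then called, 11.5% as higher and 11.8% as lower. Without scaling the members had 5 calls as higher and 16 as lower, and the share of their calls that were higher was 23.8% instead of 38.5%. The same change moved all genes from 49.5% to 31.4% and their median log2 difference to -0.26.

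**Figure D1:**
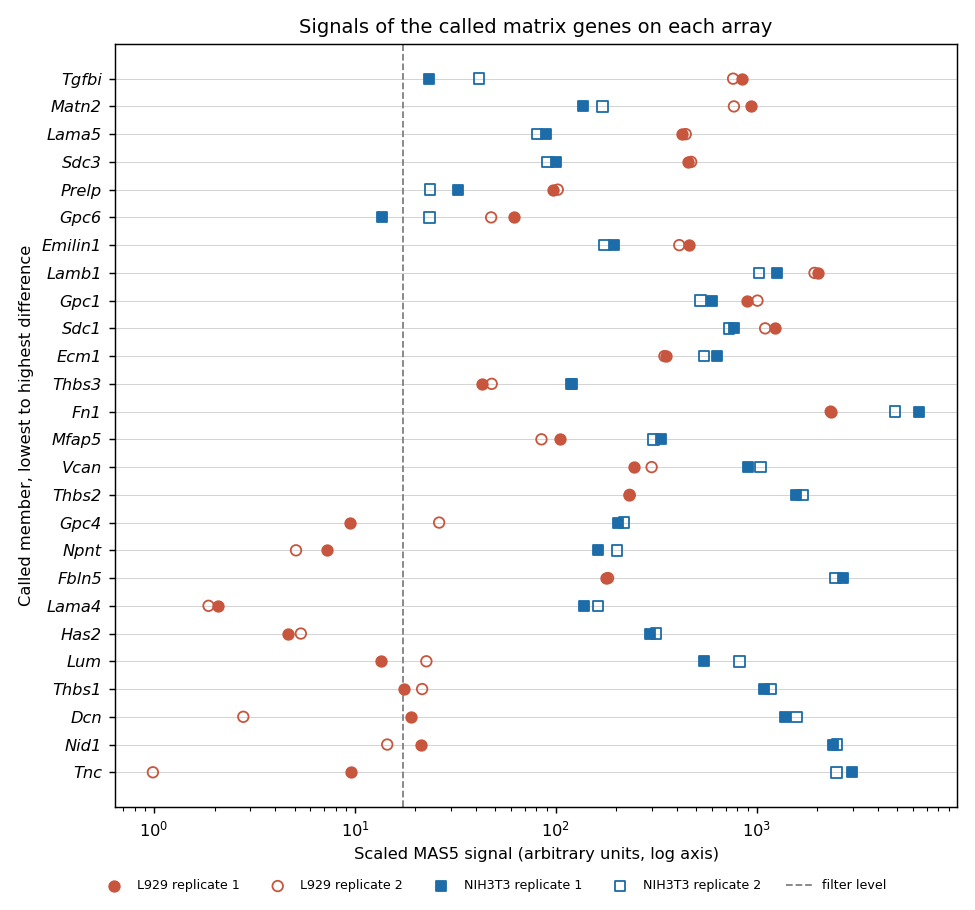
Scaled MAS5 signal (x axis, log scale, arbitrary units) of the 26 called members, ordered by difference, with 1 point per array: red circles for L929, blue squares for NIH3T3, filled for replicate 1 and open for replicate 2. The dashed line is the filter level of 17.3, and the L929 points of Tnc, Lama4, Has2 and Npnt all lie to its left.

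The promoters of called genes at the ends of this range are shown, so that the sequence before the start can be read beside the difference. They are Tnc and Nid1, the lowest in L929, and Tgfbi and Lama5, the highest, among called members with an entry in the RefSeq promoter table of GRCm38.p6. Each sequence is the 250 bases before the most upstream start of the gene, read 5′ to 3′ on the gene's strand. Capitals mark matches, on either strand, to the motif TATAAA of the TATA box, to GGGCGG of the GC box, to the CCAAT motif, or to TGANTCA, the motif of AP-1. No matches overlap in these 4 windows.
Tnc, chr4:64047016-64047265, strand minus: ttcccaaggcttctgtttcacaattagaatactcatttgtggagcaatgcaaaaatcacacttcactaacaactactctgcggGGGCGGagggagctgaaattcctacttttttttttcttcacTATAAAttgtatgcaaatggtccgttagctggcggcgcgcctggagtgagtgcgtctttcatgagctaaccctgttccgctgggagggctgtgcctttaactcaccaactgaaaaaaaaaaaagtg
Nid1, chr13:13437352-13437601, strand plus: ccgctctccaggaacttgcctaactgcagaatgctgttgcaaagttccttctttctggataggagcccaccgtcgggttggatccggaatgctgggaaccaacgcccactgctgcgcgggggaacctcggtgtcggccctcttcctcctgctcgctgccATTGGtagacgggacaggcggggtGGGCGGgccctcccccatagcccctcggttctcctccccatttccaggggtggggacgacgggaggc
Tgfbi, chr13:56609336-56609585, strand plus: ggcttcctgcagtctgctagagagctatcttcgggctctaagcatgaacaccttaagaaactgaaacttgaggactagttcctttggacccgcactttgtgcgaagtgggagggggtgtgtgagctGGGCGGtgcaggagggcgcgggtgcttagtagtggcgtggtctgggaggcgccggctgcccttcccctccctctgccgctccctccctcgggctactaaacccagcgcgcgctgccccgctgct
Lama5, chr2:180225860-180226109, strand minus: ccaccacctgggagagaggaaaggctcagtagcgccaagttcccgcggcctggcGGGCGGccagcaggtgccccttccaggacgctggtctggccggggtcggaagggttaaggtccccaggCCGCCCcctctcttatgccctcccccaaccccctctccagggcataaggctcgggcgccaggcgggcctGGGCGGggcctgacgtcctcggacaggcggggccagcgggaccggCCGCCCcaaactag
The Tnc window held a GC box match that begins 167 bases before the start and a TATAAA match that begins 126 bases before it. The Nid1 window held a CCAAT match at 91 and a GC box match at 67 bases, and the Tgfbi window 1 GC box match at 124 bases. The Lama5 window held 4 GC box matches, at 196, 128, 59 and 14 bases. Whether any match acts as a promoter element was not tested. A total of 34 members had an entry, among them 9 of the 16 called lower and 7 of the 10 called higher. The median GC content of the windows was 62.4% for those called lower and 63.2% for those called higher. It was 59.0% over the 34 members and 52.0% over all promoters. GC box matches lay in the windows of 8 of 9 members called lower and 5 of 7 called higher. They lay in 61.8% of the 34 members with an entry and in 33.0% of 27025 promoters, 1 per gene. These promoters are of every gene with an entry, whether or not it was tested here, so they are no matched background. TATA matches lay in 3 of 9 and 0 of 7, against 17.6% of the 34 members and 13.0% of all promoters. CCAAT matches lay in 5 of 9 and 3 of 7, against 35.3% of the 34 members and 34.5% of all promoters. AP-1 matches lay in 1 of 9 and 0 of 7, against 8.82% and 6.85%. The ratio of observed to expected CpG had a median of 0.62 among members called lower, with a range of 0.06 to 0.82. Among those called higher the median was 0.58 and the range 0.18 to 0.88. Over all promoters the median was 0.38 and the range 0.0 to 1.57. The windows of genes called in opposite directions thus covered overlapping ranges, and the motif matches are a description of sequence only.

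Matricellular and adhesive glycoproteins had 2 of 11 tested members higher and 7 lower in L929, against 17.4% and 17.8% of all genes. Tnc, an anti-adhesive glycoprotein of wounds and developing tissue, measured 9.57 and 0.986 in L929 and 2980.4 and 2487 in NIH3T3. Both L929 arrays lay below the filter level, so the gene was at least 158-fold lower in L929, with a log2 difference of -7.76 (SE 0.28, limma adjusted p = 2.6e-07). Its other tested probe set, at 1.61 and 0.958 against 92.0 and 100.9, differed by -3.49 on the log2 scale. Thrombospondins are secreted calcium-binding glycoproteins that act on adhesion, proteases and growth factors, and the 3 among the members were lower in L929. Of their relatives in the further lists, Comp was not called (0.07, limma adjusted p = 0.89) and Thbs4 was too dim to be tested. Thbs1, an activator of latent TGF-beta, measured 17.5 and 21.6 in L929 and 1081 and 1176 in NIH3T3. The L929 arrays lay just above the level, and the fold on the log2 scale with the offset was 41.4 (adjusted p = 6.2e-08). Thbs2 measured 231 and 233 against 1567 and 1690.3, or 6.82-fold lower. Thbs3 measured 42.8 and 47.9 against 121 and 119, or 2.40-fold lower, so the 3 paralogues differed to unequal degrees in these cells.

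Fibronectin (Fn1), the main cell-binding glycoprotein of fibroblast matrix, stayed bright in both lines. It measured 2348 and 2331 in L929 and 6428 and 4876 in NIH3T3, or 2.39-fold lower in L929 (limma adjusted p = 0.00051). Its dimmer probe set differed in the same direction, by -1.97. Nephronectin (Npnt), a ligand of the integrin with the alpha chain Itga8, measured 7.25 and 5.08 against 162 and 202, at least 10.5-fold lower. Of its 3 tested probe sets 2 were called, and the third differed by -1.05 with an adjusted p of 0.059 over probe sets. Ecm1, a secreted glycoprotein that binds other matrix proteins, measured 353 and 347 against 636 and 545, or 1.67-fold lower. Its call was lost without scaling, where the difference was -1.02 and the adjusted p 0.075. Periostin (Postn), which promotes collagen assembly, measured 19.2 and 2.45 in L929 and 26.1 and 37.8 in NIH3T3. The difference of -1.23 missed the threshold (adjusted p = 0.055), 1 of 2 L929 arrays lay above the level, and the value rested on that line: it was -1.90 (adjusted p = 0.0054) without L929 replicate 1 and -0.54 (adjusted p = 0.31) without L929 replicate 2. Postn was also called lower with the replicate block (limma adjusted p = 0.038) and without scaling (-1.42, adjusted p = 0.0077). The same held with scaling to a common median (-1.17, adjusted p = 0.046) and with an offset of 32 (-0.6, adjusted p = 0.04).

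The genes of this group that were higher in L929 were Tgfbi and Matn2. Tgfbi, a TGF-beta-induced adhesion protein, measured 845 and 762 in L929 and 23.3 and 41.4 in NIH3T3, a log2 difference of 4.36 (SE 0.21) and a 20.6-fold difference on the offset scale (limma adjusted p = 1.3e-06). All 4 of its probe sets were called higher, with log2 differences of 2.82 to 4.76. Matn2, an adaptor of filamentous networks, measured 938 and 769 against 137 and 171, or 5.32-fold higher (adjusted p = 4.4e-06). Its other probe set differed by 1.74 and was also called. Tenascin X (Tnxb), a collagen-associated tenascin, did not follow Tnc: it measured 44.8 and 55.4 in L929 and 39.9 and 27.0 in NIH3T3. Its difference of 0.50 was not called, and the 95% interval ran from -0.14 to 1.14.

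**Figure D2:**
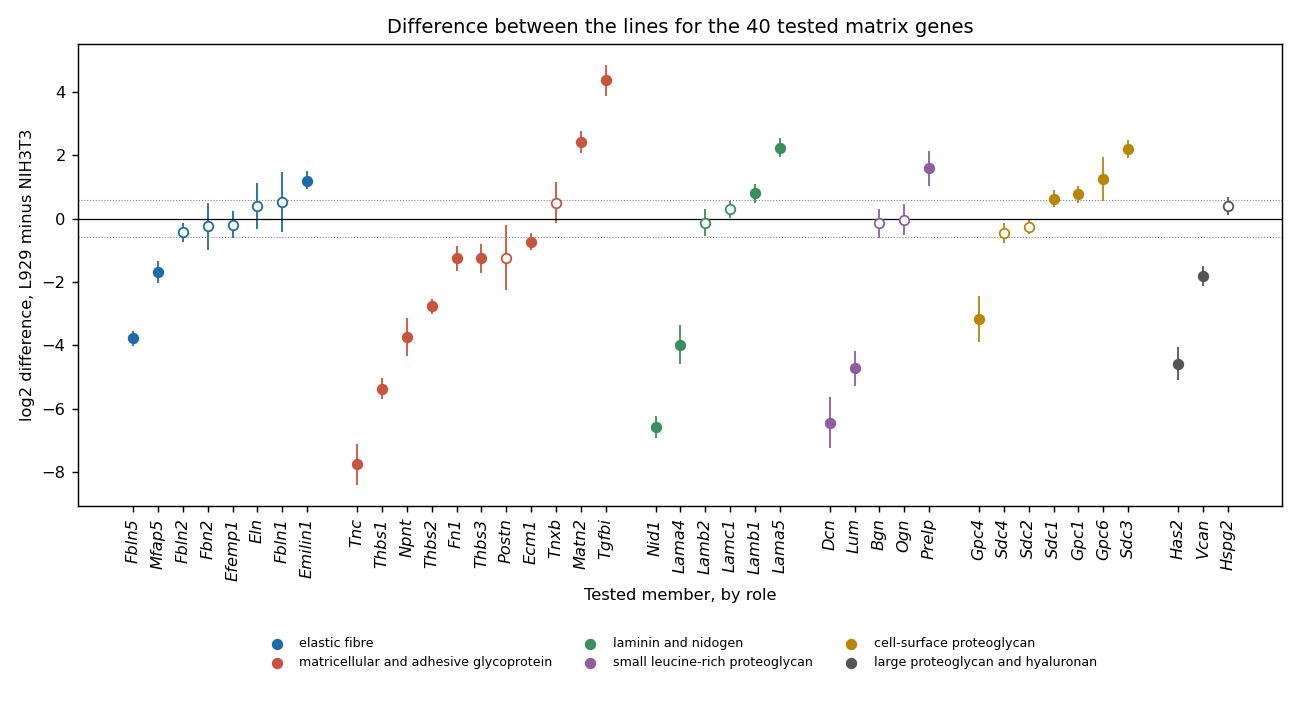
Log2 difference, L929 minus NIH3T3 (y axis), of the 40 tested members by role (x axis), with the 95% interval of the limma fit. Filled points are called and open points are not; dotted lines mark a fold of 1.5. The values run from -7.76 for Tnc to 4.36 for Tgfbi, and every role but the large proteoglycans has called genes on both sides of 0.

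Within the basement membrane group, nidogen 1 and 1 laminin alpha chain were lower in L929 while another alpha chain and a beta chain were higher. Nid1, which links laminin to type IV collagen, measured 21.4 and 14.5 in L929 and 2399 and 2503 in NIH3T3. The log2 difference was -6.58 (SE 0.15), and it was -7.04 with an offset of 1 and -5.64 with an offset of 32. The fold on the offset scale was 95.7 (limma adjusted p = 2.8e-08). Of the L929 arrays, 1 exceeded the filter level for Nid1. Its 2 other probe sets were called lower as well, by -5.86 and -1.61. Nid2, its paralogue, was too dim to be tested, at 12.6 and 4.40 in L929 and 28.8 and 14.4 in NIH3T3.

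The laminin alpha chains are the subunits that bind cell receptors, and those tested differed in opposite directions. Lama4, the alpha chain typical of vessel and mesenchymal basement membranes, measured 2.07 and 1.87 in L929 and 138 and 162 in NIH3T3. It was lower by at least 8.67-fold (limma adjusted p = 8.1e-06). Lama5, the widespread alpha chain of adult basement membranes, went the other way, with 423 and 443 in L929 and 89.8 and 80.6 in NIH3T3, or 4.73-fold higher (adjusted p = 3.5e-06). Neither gene's lines overlapped, and every tested probe set of Lama4 (-3.98 and -1.49) and of Lama5 (2.24 and 3.91) was called in that direction. Lama2, the alpha chain of muscle, was too dim to be tested, with 1 of 4 arrays above the level. The beta chain Lamb1 measured 2015 and 1937 in L929 and 1254 and 1026 in NIH3T3, or 1.74-fold higher (adjusted p = 0.0014). That call was lost without scaling (difference 0.51, adjusted p = 0.28). The beta chain Lamb2 and the gamma chain Lamc1, which most laminins share, were not called. Lamc1 measured 533 and 529 against 468 and 401, a difference of 0.29 with a 95% interval of 0.03 to 0.55, and Lamb2 differed by -0.13, with an interval of -0.56 to 0.30.

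Of the small leucine-rich proteoglycans, decorin and lumican were lower in L929, Prelp was higher and biglycan was bright in both lines. Dcn, which binds collagen fibrils and TGF-beta, measured 19.0 and 2.78 in L929 and 1382 and 1572 in NIH3T3. The difference on the offset scale was -6.44 (SE 0.36, limma adjusted p = 2.8e-06), and no fold is given because the L929 mean lay below the filter level with 1 array above it. It was -7.08 without L929 replicate 1 and -5.78 without L929 replicate 2. Lum, a keratan sulfate proteoglycan that limits fibril width, measured 13.4 and 22.7 against 548 and 819, or 26.4-fold lower, and 1 of the L929 arrays exceeded the level (adjusted p = 1.8e-06). Dcn and Lum were each read by 1 tested probe set. Prelp, a heparin-binding member that anchors basement membranes to connective tissue, measured 97.1 and 102 in L929 and 32.6 and 23.6 in NIH3T3. It was 3.0-fold higher (adjusted p = 0.00088), and both of its probe sets were called.

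Biglycan (Bgn), the closest relative of decorin, measured 4590.35 and 4773 in L929 and 6094 and 4416 in NIH3T3. The lines overlapped, and the difference of -0.15 had a 95% interval of -0.60 to 0.31. Osteoglycin (Ogn) likewise overlapped, at 79.6 and 67.0 against 69.7 and 80.1, and its 2 probe sets differed by -0.03 and 0.00. Fibromodulin (Fmod) and asporin (Aspn) were below the filter, and 0 of the 6 Fmod probe sets could be tested.

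Of the elastic fibre genes, 1 of 8 tested was higher and 2 were lower in L929, or 37.5% called, near the 35.2% of all genes. Fibulin 5 (Fbln5), which tethers elastin and its crosslinking enzymes to the cell, measured 177 and 182 in L929 and 2676 and 2469.5 in NIH3T3. It was 13.8-fold lower in L929 (limma adjusted p = 6.6e-08), and its dimmer probe set also fell, by 1.36 on the log2 scale. Mfap5, a microfibril component that binds fibrillin, measured 105 and 84.7 against 333 and 305, or 3.20-fold lower (adjusted p = 4.3e-05). Emilin1, an elastin-microfibril interface protein that restrains TGF-beta, measured 461 and 411 against 195 and 174, or 2.30-fold higher (adjusted p = 9.4e-05). Its call was lost without scaling (difference 0.92, adjusted p = 0.14).

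The remaining elastic fibre genes did not pass. Fbln2, bright in both lines at 1435 and 1508 in L929 and 2182 and 1834 in NIH3T3, differed by -0.44, which had an adjusted p of 0.023 but lay under the fold threshold. Efemp1, also called fibulin 3, measured 3104 and 2209 against 3090.2 and 2872, with overlapping lines. Elastin (Eln) itself was dim, at 37.5 and 20.8 in L929 and 18.6 and 20.5 in NIH3T3, and was not called. Fbn2, a fibrillin of developing tissue, differed by -0.25, and Fbln1 by 0.53, while the other tested Fbln1 probe set stood at -0.60. Without NIH3T3 replicate 2, Fbln1 was called higher (1.17, adjusted p = 0.04). Mfap2 and Mfap4 lay below the filter, and Mfap4 did not exceed 2.27 on any array.

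Among the cell-surface proteoglycans, 4 of 7 tested members were higher and 1 was lower, against 17.4% and 17.8% of all genes. Sdc3, a syndecan best known from nerve and muscle, measured 456 and 471 in L929 and 100.1 and 90.8 in NIH3T3, or 4.56-fold higher (limma adjusted p = 3.2e-06). Of its 3 tested probe sets 2 were called, and the third differed by 0.60. Sdc1, the syndecan of epithelia and plasma cells, measured 1230.1 and 1100.4 against 771 and 726, or 1.55-fold higher (adjusted p = 0.0019). Its other 3 probe sets differed by 0.31 to 0.47 without being called. The call was lost without L929 replicate 1 (0.55) and without scaling (0.35, adjusted p = 0.57). It was also lost where probe sets were averaged (0.46) or those with _x_ or _s_ in their names were left out (0.47). The called Sdc1 probe set has _x_ in its name. Sdc2, the main syndecan of mesenchymal cells, and Sdc4, a partner of integrins in focal adhesions, were not called, at differences of -0.26 and -0.46. Sdc4 passed as lower without L929 replicate 2 (-0.62, adjusted p = 0.021), although its other probe set stood at 0.18.

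Glypicans, heparan sulfate proteoglycans held by a lipid anchor that modulate Wnt, BMP and FGF signals, split between the lines. Gpc4 measured 9.45 and 26.2 in L929 and 203 and 218 in NIH3T3, or 8.93-fold lower, and 1 of the L929 arrays exceeded the filter level (limma adjusted p = 8.3e-05). Gpc6, from the same subfamily, measured 61.7 and 47.6 against 13.6 and 23.5, or 2.38-fold higher, where 1 of the NIH3T3 arrays exceeded the level (adjusted p = 0.0096). All 4 tested Gpc6 probe sets were called, at 1.15 to 1.42, but the gene missed the threshold when NIH3T3 replicate 1 was left out (0.98, adjusted p = 0.052) and when arrays were not scaled (1.01, adjusted p = 0.077). Gpc1, the most widespread glypican, measured 899 and 1008 against 597 and 525, or 1.69-fold higher (adjusted p = 0.00094). Without scaling it differed by 0.47 and was not called. Gpc3, a growth-restraining glypican of the embryo, lay below the filter on all 4 arrays.

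Of the large matrix proteoglycans and the hyaluronan synthase, versican and Has2 were lower in L929 and perlecan was not called. Has2, which makes the hyaluronan chains to which versican binds, measured 4.64 and 5.38 in L929 and 294 and 315 in NIH3T3. It was at least 17.6-fold lower (limma adjusted p = 1.3e-06), and its 2 probe sets gave -4.58 and -4.43. Versican (Vcan), a chondroitin sulfate proteoglycan of loose matrix, measured 244 and 299.5 against 902 and 1044, or 3.52-fold lower (adjusted p = 1.4e-05). Its 3 tested probe sets ranged from -1.88 to -1.55 and all were called, while 5 more were too dim to be tested. Perlecan (Hspg2), the large heparan sulfate proteoglycan of basement membranes, measured 521 and 523 in L929 and 358 and 439.6 in NIH3T3. Its difference of 0.39 lay under the fold threshold (adjusted p = 0.031), its second probe set was called higher at 0.86, and the average of both was called (0.63, adjusted p = 0.0012).

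Probe sets of the same gene gave a second reading within the same arrays. The members had 112 probe sets, of which 83 were tested, 24 called higher and 31 lower. Of all 23268 tested probe sets with 1 gene symbol, 33.2% were called, 15.6% as higher and 17.6% as lower. Of 29 members with several tested probe sets, 25 had all of them on the same side of 0, and 0 had probe sets called in opposite directions. For 18 members, or 62.1% of the 29, every tested probe set was called the same way. Among all 5997 genes with several tested probe sets, 67.9% had them on the same side of 0, 1.08% had probe sets called in opposite directions and 18% had every one called the same way. The 4 members with probe sets on both sides of 0 or at 0 were Fbln1, Fbln2, Ogn and Sdc4, and none of their probe sets was called. The size of the difference was less settled than its direction: Tnc ranged from -7.76 to -3.49 and Nid1 from -6.58 to -1.61, with the smaller value in each case from a dimmer probe set.

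**Figure D3:**
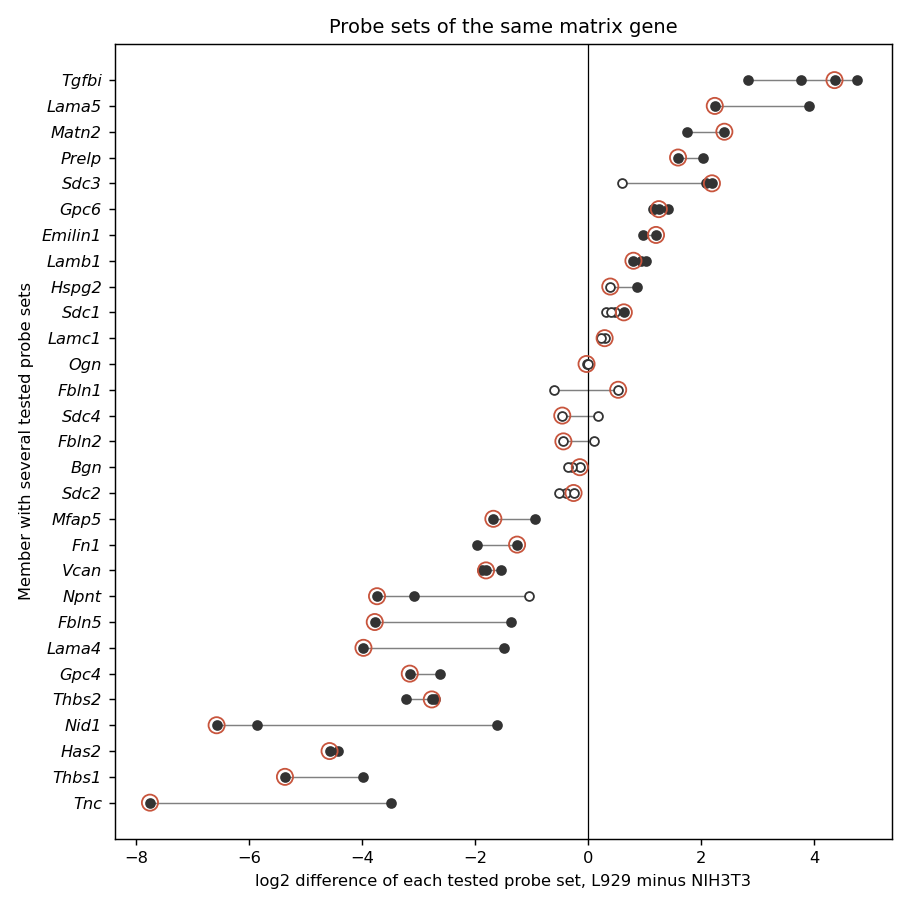
Log2 difference of each tested probe set (x axis), L929 minus NIH3T3, for the 29 members with several (y axis). Filled points are called over all probe sets, open points are not, and a red ring marks the probe set used for the gene. Tgfbi lies between 2.82 and 4.76 and Tnc between -7.76 and -3.49, so neither reaches 0.

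**Figure D4:**
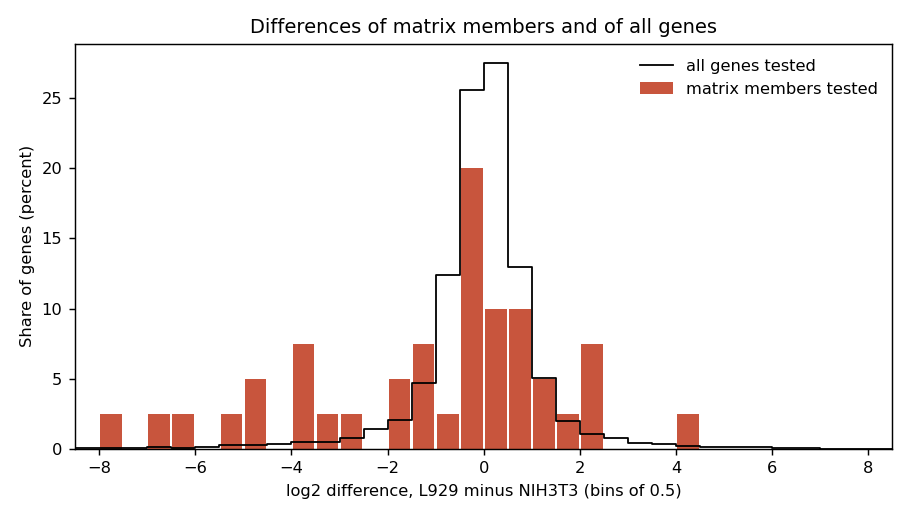
Share of genes (y axis, percent) in each bin of log2 difference, L929 minus NIH3T3 (x axis, bins of 0.5), for the 40 tested members (red bars) and all 12676 tested genes (black line). Of the members, 11 were called more than 4-fold lower and 4 more than 4-fold higher; 8 of the 11 passed the filter through NIH3T3 alone, and 3 of the 11 and all 4 of the others lay above its level on all 4 arrays.

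Across the tested members the arrays of the lines did not overlap for 34 of 40, or 85.0%, against 73.9% of all tested genes. The 6 that overlapped were Fbn2, Fbln1, Efemp1, Lamb2, Bgn and Ogn, all of them uncalled. Below the filter level on both L929 arrays lay 4 of 40, and on both NIH3T3 arrays 0 of 40, against 4.84% and 4.32% of all tested genes.

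Other genes of the same pathways also differed in both directions. Of 26 tested further matrix glycoproteins and proteoglycans, 8 were called higher and 4 lower by limma, with a median of -0.13. Serglycin (Srgn), the granule proteoglycan of blood cells, measured 351 and 401 in L929 and 1.94 and 19.6 in NIH3T3, and dermatopontin (Dpt), a decorin-binding matrix protein, 378 and 381 against 7.24 and 20.9. The L929 values of both were high, 1 of 2 NIH3T3 arrays lay above the filter level for each, and the NIH3T3 means lay below it, so no fold is given (differences 4.53 and 4.20). Cspg4, or NG2, was 6.60-fold higher in L929. In the other direction Mfap3l was at least 20.1-fold lower, and Ltbp1, which stores latent TGF-beta on fibrillin, and agrin (Agrn) were 2.62-fold and 2.43-fold lower.

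Of 40 tested genes that make or modify glycosaminoglycan chains or turn over hyaluronan, 7 were higher and 13 lower, with a median of -0.10. Chst15, a sulfotransferase of chondroitin sulfate, measured 409 and 405 in L929 and 2.71 and 2.03 in NIH3T3. Its level in L929 was higher by at least 23.6-fold (limma adjusted p = 5.5e-07). Heparanase (Hpse), which cleaves heparan sulfate, was at least 10.7-fold higher and the epimerase Glce 2.73-fold higher. Hs6st2, a heparan sulfate sulfotransferase, measured 8.77 and 9.59 against 597 and 584, at least 34.2-fold lower (adjusted p = 2.1e-07). Chst11, another chondroitin sulfotransferase, was at least 12.0-fold lower, and Papss2, which makes the sulfate donor, at least 4.90-fold lower. Among 17 tested receptors for laminin, fibronectin, elastin and hyaluronan 4 were higher and 5 lower, with a median of -0.01. Itgb4, the laminin-binding integrin chain of epithelia, was at least 2.24-fold higher in L929, and Itgb5 and Cd47, a thrombospondin receptor, were 2.64-fold and 2.58-fold higher, although another Cd47 probe set differed by only 0.16. Itgb8 was at least 2.75-fold lower, Itga3, a laminin receptor chain, 3.59-fold lower, and Itga8, the nephronectin receptor chain, at least 1.32-fold lower at 22.3 and 23.4 in NIH3T3. These shares compare with 17.4% higher and 17.8% lower over all genes.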

How the data were processed

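RNA of unstimulated L929 and NIH3T3 cells, 2 arrays per line, was analysed from the deposited table, which holds an intensity for each probe set and array. The values are MAS5 signals, per the submitters' processing notes. The sources used here do not give a MAS5 version, scaling target or build. Samples were grouped by their titles. Of 45037 probe sets without controls, the platform annotation gives 34945 a unique symbol, 932 several and 9160 none; only the first were named. Identifiers of 34741 matched a RefSeq gene table of GRCm38.p6, and 0 symbols changed.

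Arrays were scaled to a common trimmed mean without the outer 2% at each end (factors 0.726 to 1.14). An offset of 8.01, the 25th percentile, was added before log2, so folds of dim genes are understated. Probe sets with both arrays of a line above 17.3, the 40th percentile, were tested; this level is a percentile and no detection limit. The lines were compared with lmFit and eBayes (mean-variance trend) of limma 3.58.1 in R 4.3.3 over all probe sets. Each gene took its brightest tested probe set, with Benjamini-Hochberg adjustment over 12676 genes. A gene was called at an adjusted p under 0.05 and a fold above 1.5, as in the study's design. "At least" marks a fold against 17.3 where the other line lay below it on both arrays. Where only 1 array of a line lay above the level and the mean below it, no fold is given.

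The script was tested on simulated data. The members, the further lists and the naming rule (every member; of the other lists up to 3 called genes per direction) were chosen with earlier results of these data known. Alternatives were other scalings, offsets, filters and probe-set rules, no trend, the replicate block and each array left out.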

Additional observations from a re-analysis of the deposited data

How the results depend on the processing

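Of the 26 called members, 20 kept their direction and call in each of the 16 alternatives that gave them a value. The exceptions were Emilin1, Ecm1, Lamb1, Gpc1, Gpc6 and Sdc1. The counts of members called ranged from 9 to 11 higher and from 16 to 17 lower, except without scaling, where 5 were higher and 16 lower, and 839 instead of 2209 genes in all were higher. Same-numbered arrays did not deviate together (r = 0.0138 over probe sets), and the labels give no shared batch. The numbers were therefore not used to pair the samples, although 2 arrays per line cannot exclude a shared batch. With the replicate block 2223 genes were higher and 2299 lower, with 10 and 17 members, Postn being the added call. Uncalled members near 0 changed sign. Ogn stood at 0.03 with median scaling and 0.06 with quantile normalization, and Fbln1 at -0.04 as the mean of its probe sets. With each array left out in turn, Ogn ranged from -0.12 to 0.11 (it was 0.11, 0.08 and 0.06 without L929 replicate 1, L929 replicate 2 and NIH3T3 replicate 2). Fbln1 ranged from -0.10 to 1.17, Fbn2 from -0.58 to 0.08, Efemp1 from -0.43 to 0.06, Lamb2 from -0.28 to 0.03 and Bgn from -0.38 to 0.08; the cause was not tested. Leaving out 1 array leaves a line with 1 array, assumed to vary like the other line. The stricter filter kept 35 members. Signals near the filter level limit the size of the largest differences. These sizes also moved with the offset, which the SE does not include. With an offset of 1 and of 32, Tnc stood at -9.22 and -6.22 and Dcn at -7.41 and -5.16. Thbs1 stood at -5.79 and -4.49, and Lum at -5.18 and -3.82.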
